A study of Mus musculus with 18 samples.

Results

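The tRNA-Arg-TCT isodecoders, the arginine tRNAs that read AGA codons, were followed in the hippocampus of WT and 5xFAD mice with and without neuronal silencing of RTP801. Isodecoders share an anticodon and differ elsewhere in the tRNA body. All table entries of this anticodon were taken, which gave 5 of 213 mature tRNAs and 4 of 335 precursor loci, or 32 of 3574 entries (antisense entries, which held 0 reads for these tRNAs, were left out). Isodecoder 5 has mature entries here and no precursor entry was analysed for it.

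Mature and precursor tRNAs were measured by Hydro-tRNA-seq, in which RNA of 60 to 100 nt is cut from a gel and broken up by alkaline hydrolysis before 50 bp paired-end sequencing, so that a read covers a piece of a tRNA. All mice were male and had received, at 6 months of age, bilateral injections into CA1 and the dentate gyrus of a neuron-targeted adeno-associated virus that carries GFP and an shRNA, with both hippocampi taken 4 weeks later. The groups were WT mice with the control shRNA (WT shCT, n = 5), WT mice with the shRNA against RTP801 (WT shRTP801, n = 4), 5xFAD mice with the control shRNA (5xFAD shCT, n = 3) and 5xFAD mice with the shRNA against RTP801 (5xFAD shRTP801, n = 6). The WT animals had a B6SJL background, and 5xFAD mice are a transgenic model of Alzheimer's disease whose transgenes are driven by the Thy-1 promoter, which is active in neurons. Each mouse gave 1 library. No library came without a virus, from a purified cell type or from another tissue, so preference for brain or neurons could not be examined.

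Most tRNA genes lack an intron, but arginine TCT genes are among the few families in which several do carry one, and the intron must be cut out and the exons joined by the tRNA ligase complex. GtRNAdb, as cited by the study, lists an intron for Arg-TCT-1-1, 2-1, 3-1 and 5-1 and none for 4-1. RefSeq (GRCm38.p6) lists 5 mouse genes for this tRNA, of which n-TRtct5 spans 74 bp and the other 4 span 85 to 87 bp (RefSeq names are not paired with those of the table). Arg-TCT-4-1 is known from mouse genetics as an isodecoder enriched in the central nervous system, and a common inbred strain carries a variant of it that impairs its maturation. The labels give no allele of that gene for these mice, so allele and group cannot be told apart in the Arg-TCT-4 values below. What part an allele has in its levels, their spread and its precursor to mature ratio was not tested. Having no intron in that list, Arg-TCT-4-1 served here as the member of the family that needs no splicing, beside 3 loci that do.

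The labelled tissue was checked with small RNAs of neurons. Hairpins of Mir124 had reads in 17 of 18 libraries (0 to 81 reads), and copies of Snord116 in 15 (0 to 10126 reads). A Mir9 hairpin had reads in 4 libraries, all of 5xFAD mice (up to 12 reads), and 0 reads in every WT library. For Snord115, the other neuronal marker that had been listed, and for the markers of blood, microglia and liver, no entry was analysed here. Mature tRNA reads numbered 9850676 to 20292469 per library and precursor reads 47875 to 318628. All reads of a library means here its recovered counts summed over all entries of every RNA type. This sum is not the number of reads sequenced, and it was not set against the read totals or RNA type proportions that the paper reports. In all, 3 libraries stood apart, with mitochondrial tRNA genes at under 1% of all reads: WT shCT mouse 5 (0.00314%), WT shRTP801 mouse 4 (0.427%) and 5xFAD shRTP801 mouse 7 (0.0317%), against 6.85% or more in each of the other 15. Each of these libraries also held the highest Arg-TCT-4 share of its group among mature reads and the lowest Arg-TCT-4-1 share among its precursor reads, the part of which in the group values was not tested, and no 5xFAD shCT library was among them. Group differences that these libraries move by over 1.5 times are given with and without them for the mature shares. The other 15 libraries also differed in the part of all reads that was mature tRNA. It was 10750958 of 89228299 reads in WT shCT mouse 15 and 20292469 of 27683344 in 5xFAD shRTP801 mouse 12. What part this has in the shares and ratios below was not tested.

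Among mature tRNAs, Arg-TCT-1 held most of the family's reads, with a median of 0.0503% of mature tRNA reads over the 18 mice (range 0.0273% to 0.164%). Arg-TCT-3 followed with a median of 0.0299%, then Arg-TCT-2 with 0.00733%, Arg-TCT-5 with 0.00400% and Arg-TCT-4 with 0.00319%. Isodecoder 1 exceeded 3 in 18 of 18 mice, isodecoder 3 exceeded 2 in 18 of 18 and isodecoder 2 exceeded 4 in 16 of 18. The mean log2 ratio was 0.78 ± 0.51 (SD) for 1 to 3, 1.83 ± 0.20 for 3 to 2 and 1.02 ± 0.76 for 2 to 4, with adjusted p of 3.5e-05, 3.5e-05 and 0.00026 in two-sided sign-flip permutation tests within mice (100000 resamples, Benjamini-Hochberg over 7 neighbouring pairs). Isodecoders 4 and 5 did not differ beyond their spread, with 4 above 5 in 6 of 18 mice (mean log2 ratio -0.22 ± 0.94, adjusted p = 0.32, permutation test). These are shares of reads, not corrected for length, since no lengths of the mature forms were given.

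Reads of close isodecoders can be split or counted more than once. Per library, the 5′ reads of isodecoder 2 were 0.870 to 1.011 times those of isodecoder 3 and 1.02 to 1.396 times those of isodecoder 5, and their values are therefore uncertain. For isodecoder 4 such reads were few, with 25 over all libraries against 2316 for isodecoder 2.

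**Figure D1:**
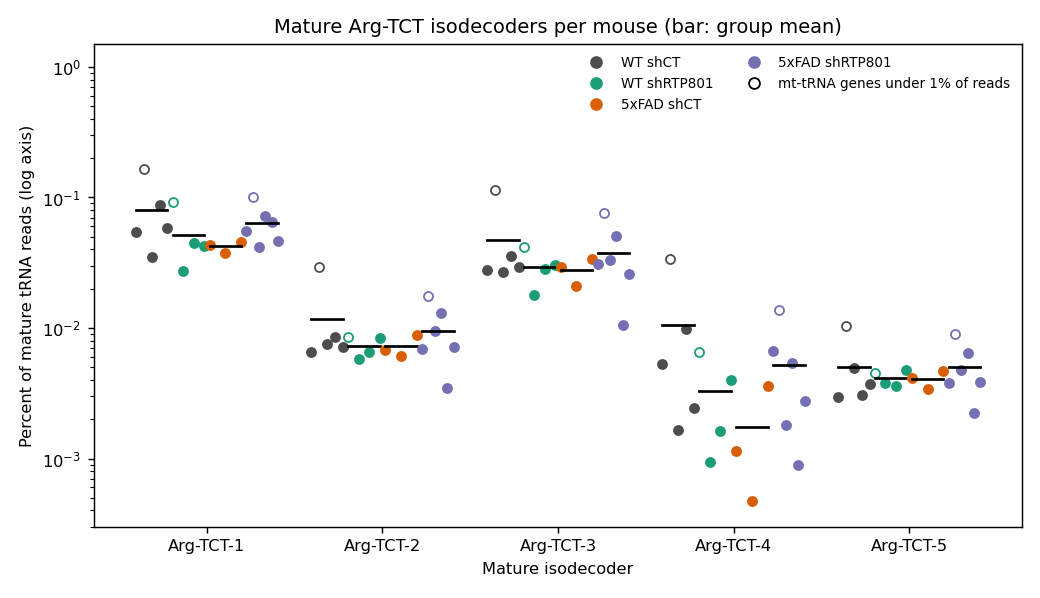
Percent of mature tRNA reads on a log axis for the 5 mature Arg-TCT isodecoders. Each point is 1 mouse, coloured by group, short bars are group means, and open points are the 3 libraries with mitochondrial tRNA genes under 1% of reads. Arg-TCT-1 and Arg-TCT-3 lie highest, Arg-TCT-4 spreads most widely, from 0.000472% to 0.0338%, and the highest point of each isodecoder is an open one, WT shCT mouse 5.

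Over all mice the SD of Arg-TCT-4 (0.00782%) exceeded its mean (0.00571%), whereas for each of the other 4 isodecoders the SD was below the mean. In WT shCT mice its mature share was 0.00532%, 0.0338%, 0.00165%, 0.00988% and 0.00245% of mature tRNA reads in mice 3, 5, 6, 11 and 15 (251 to 6619 reads). In WT shRTP801 mice it was 0.00660%, 0.000942%, 0.00164% and 0.00397% in mice 4, 10, 17 and 21 (93 to 1175 reads). Mouse 5 stood far above the other WT shCT mice, and the 2 WT groups overlapped.

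In 5xFAD shCT mice the share was 0.00114%, 0.000472% and 0.00361% in mice 1, 16 and 18 (61 to 388 reads). In the 6 5xFAD shRTP801 mice the lowest share was 0.000898%, the median 0.00411% and the highest 0.0137% (148 to 2524 reads). The lowest value of the series was that of 5xFAD shCT mouse 16, with a 95% Wilson interval of 0.000368% to 0.000606%, which lies below that of every other mouse. Intervals cover counting error only, as no molecular identifiers were named in the sources used here.

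The group means were 0.0106% ± 0.0134 (SD, n = 5) in WT shCT, 0.00329% ± 0.00256 (n = 4) in WT shRTP801, 0.00174% ± 0.00165 (n = 3) in 5xFAD shCT mice, with 0.00521% ± 0.00468 (n = 6) for the 5xFAD shRTP801 group. The log2 ratio of means was -2.61 for 5xFAD shCT against WT shCT (two-sided exact permutation p = 0.321) and 1.58 for 5xFAD shRTP801 against 5xFAD shCT (exact p = 0.286), 2 comparisons that share the 5xFAD shCT mice. It was -1.69 for WT shRTP801 against WT shCT (exact p = 0.373) and 0.66 between both silenced groups (exact p = 0.548). None of these differences exceeded the spread between mice. Single mice set their size. Leaving out WT shCT mouse 5 gave -1.47 for 5xFAD shCT against WT shCT (exact p = 0.257) and -0.55 for WT shRTP801 against WT shCT (exact p = 0.514). The ratio of 5xFAD shRTP801 to 5xFAD shCT was 1.01 without 5xFAD shRTP801 mouse 7 (exact p = 0.321) and 2.69 without 5xFAD shCT mouse 18 (exact p = 0.214). Between both silenced groups it was 0.097 without 5xFAD shRTP801 mouse 7, 0.36 without WT shRTP801 mouse 10, 0.44 without mouse 17 and 1.25 without mouse 4. In bulk tissue, fewer cells that express a tRNA and less of it per cell cannot be told apart. Over 48 exact tests of 12 measures in 4 comparisons, 4 had p under 0.05 and 0 remained after Benjamini-Hochberg adjustment (smallest adjusted p = 0.536). The smallest exact p that these group sizes allow lies between 0.00476 and 0.0179.

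The other 4 mature isodecoders together made up 0.144% ± 0.10 (SD, n = 5) of mature tRNA reads in WT shCT, 0.0927% ± 0.0384 (n = 4) in WT shRTP801, 0.0815% ± 0.0125 (n = 3) in 5xFAD shCT mice, with 0.116% ± 0.0484 (n = 6) for the 5xFAD shRTP801 group. The log2 ratio of means was -0.82 for 5xFAD shCT against WT shCT (exact p = 0.429) and 0.51 for 5xFAD shRTP801 against 5xFAD shCT (exact p = 0.25, permutation tests). Without WT shCT mouse 5 the first was -0.29 (exact p = 0.343), and without 5xFAD shRTP801 mouse 7 the second was 0.27 (exact p = 0.393), both of them libraries low in mitochondrial tRNA. For WT shRTP801 against WT shCT the ratio was -0.63 (exact permutation p = 0.460), and -0.11 without WT shCT mouse 5. Between both silenced groups it was 0.32 (exact permutation p = 0.467). That became 0.088 without 5xFAD shRTP801 mouse 7 and 0.63 without WT shRTP801 mouse 4. The groups overlapped in every comparison.

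Set against its relatives within each mouse, Arg-TCT-4 took up 5.47%, 9.59%, 2.18%, 6.85% and 2.42% of mature Arg-TCT reads in WT shCT mice 3, 5, 6, 11 and 15. It took up 1.34%, 0.689% and 3.74% in 5xFAD shCT mice 1, 16 and 18. Its lowest share of the family was that of 5xFAD shCT mouse 16, while mouse 18 of that group lay among the WT values. The mean log2 ratio of Arg-TCT-4 to the summed other isodecoders was -4.39 ± 0.99 (SD, n = 5) in WT shCT, -5.11 ± 0.76 (n = 4) in WT shRTP801, -6.01 ± 1.25 (n = 3) in 5xFAD shCT mice, with -4.91 ± 1.01 (n = 6) for the 5xFAD shRTP801 group. The difference between 5xFAD shCT and WT shCT was -1.63 (exact permutation p = 0.0893, adjusted p = 0.536), and it was -2.29 without mouse 18 (exact p = 0.0476) and -1.05 without mouse 16 (exact p = 0.238). Between 5xFAD shRTP801 and 5xFAD shCT it was 1.10 (exact permutation p = 0.238), with 0.52 without mouse 16 and 1.76 without mouse 18.

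In the limma fit across 186 mature tRNAs, Arg-TCT-4 had a log2 change of -1.60 ± 0.78 (SE) in 5xFAD shCT against WT shCT (adjusted p = 0.539, limma with Benjamini-Hochberg adjustment), which was -1.04 without WT shCT mouse 5 (adjusted p = 0.704, limma). Its interaction of genotype and treatment was 2.00 ± 1.05 (SE, adjusted p = 0.423, limma). All 5 isodecoders had a negative change in the first comparison, -1.60 to -0.12 with a median of -0.49, while the median over all mature tRNAs was 0.31. At an unadjusted p under 0.05, 0 of 5 passed beside 5.38% of all mature tRNAs there, and 0 of 5 beside 1.08% in 5xFAD shRTP801 against 5xFAD shCT. After adjustment limma called 0% of mature tRNAs in each comparison and in the interaction, with 1 to 20 of 186 at an unadjusted p under 0.05. In these counts edgeR also called 0, and DESeq2 called 1 in WT shRTP801 against WT shCT, which was no Arg-TCT tRNA. The groups did not overlap for 0 of 5 isodecoders in either comparison with 5xFAD shCT mice, beside 6.45% of mature tRNAs against WT shCT and 3.76% against 5xFAD shRTP801.

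The precursors gave another order. Over the 18 libraries the medians were 0.0225% of precursor reads for Arg-TCT-3-1, 0.0146% for 2-1, 0.0123% for 4-1 and 0.00510% for 1-1. The means were 0.0205%, 0.0166%, 0.0190% and 0.00551%, so 4-1 and 2-1 changed places between mean and median. None of the neighbouring pairs (3-1 and 4-1, 4-1 and 2-1, 2-1 and 1-1) differed beyond the spread between mice (adjusted p = 0.11, 0.32 and 0.21, sign-flip permutation tests). The precursor of the isodecoder with most mature reads, Arg-TCT-1, thus had the fewest precursor reads of the family by mean and by median.

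Precursor reads were few, with 10 to 84 per library over the 4 loci, so a single mouse's share carries a wide counting error. Arg-TCT-4-1 had 8, 4, 3, 7 and 41 reads in WT shCT mice 3, 5, 6, 11 and 15, and 2, 8, 11 and 36 in WT shRTP801 mice 4, 10, 17 and 21. It had 4, 32 and 12 reads in 5xFAD shCT mice 1, 16 and 18, and 2 to 20 in 5xFAD shRTP801 mice. Each of the first 3 groups held 1 mouse far above the rest, namely mouse 15 with 0.0856% of precursor reads (Wilson interval 0.0631% to 0.116%), mouse 21 with 0.0484% and mouse 16 with 0.0630%. Each of these mice also had the highest sum of reads over all entries in its group (89228299, 74068081 and 62186610). The part of this in their shares was not tested.

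**Figure D2:**
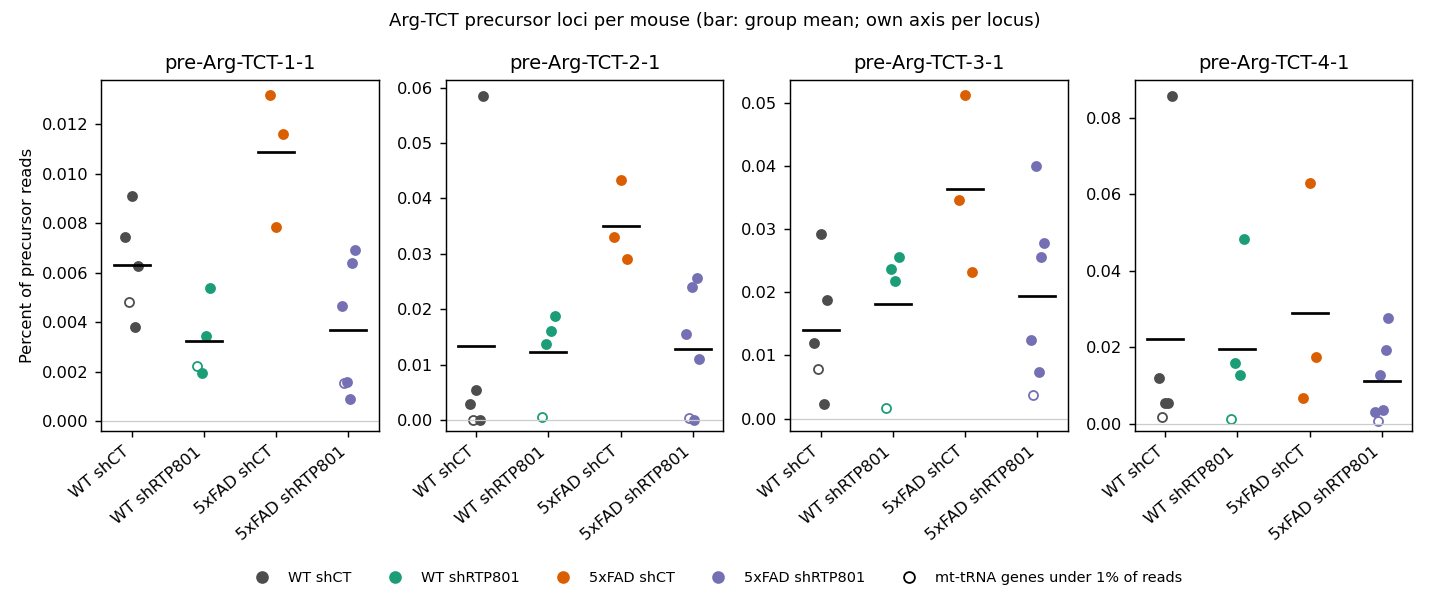
Percent of precursor reads for the 4 Arg-TCT loci with a precursor entry, each panel on its own axis. Each point is 1 mouse, bars are group means, and open points are the 3 libraries with mitochondrial tRNA genes under 1% of reads. For 1-1 and 2-1 all 5xFAD shCT mice lie above all 5xFAD shRTP801 mice, whereas for 4-1 the groups overlap and 1 mouse each lies far above the rest in WT shCT, WT shRTP801 and 5xFAD shCT.

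The mean share of the Arg-TCT-4-1 precursor was 0.0220% ± 0.0357 (SD, n = 5) in WT shCT, 0.0195% ± 0.0203 (n = 4) in WT shRTP801, 0.0290% ± 0.0299 (n = 3) in 5xFAD shCT mice, with 0.0112% ± 0.0107 (n = 6) for the 5xFAD shRTP801 group. The log2 ratio of means was 0.40 for 5xFAD shCT against WT shCT (exact p = 0.768) and -1.37 for 5xFAD shRTP801 against 5xFAD shCT (exact p = 0.190). Without mouse 16 the first was -0.88 and without WT shCT mouse 15 it was 2.24, and computed on the authors' normalized values it was -0.0029, so it had no stable direction. The second was -0.10 without mouse 16 (exact p = 0.929).

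The loci with an intron stood as follows. Arg-TCT-2-1 had 2, 0, 3, 0 and 28 reads in WT shCT mice 3, 5, 6, 11 and 15, and 20, 22 and 20 in 5xFAD shCT mice 1, 16 and 18. In 5xFAD shRTP801 mice it had 0 to 16 reads. All 5xFAD shCT mice (0.0290% to 0.0433%) lay above all 5xFAD shRTP801 mice (0% to 0.0256%), while WT shCT mouse 15, at 0.0585%, lay above them all. A count of 0 in 5xFAD shRTP801 mouse 12 allows a share of up to 0.00274%, the share that 3 reads would make (the Wilson upper limit is 0.00351%).

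Arg-TCT-1-1 had 8, 4 and 8 reads in 5xFAD shCT mice 1, 16 and 18 and 1 to 5 in 5xFAD shRTP801 mice, shares of 0.00787% to 0.0132% and 0.000913% to 0.00693%, with no overlap. Arg-TCT-3-1 had 21, 26 and 16 reads in 5xFAD shCT mice 1, 16 and 18 and 8 to 25 in 5xFAD shRTP801 mice, whose shares overlapped. The log2 ratio of means was -1.57 for 1-1 (exact permutation p = 0.0119, the smallest these groups allow, adjusted p = 0.429 over 36 tests) and -1.46 for 2-1 (exact p = 0.0357, adjusted p = 0.457). The groups thus did not overlap for 2 of 4 loci, 1-1 and 2-1, in 5xFAD shRTP801 against 5xFAD shCT, beside 5.71% of all precursor loci. In 5xFAD shCT against WT shCT they overlapped for all 4 loci, beside 9.91% of all loci without overlap.

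The 3 loci other than 4-1 were then summed. They held 0.0337% ± 0.0313 (SD, n = 5) of a library's precursor reads in WT shCT, 0.0337% ± 0.0200 (n = 4) in WT shRTP801, 0.0823% ± 0.0193 (n = 3) in 5xFAD shCT mice, with 0.0359% ± 0.0251 (n = 6) for the 5xFAD shRTP801 group. The log2 ratio of means was 1.29 for 5xFAD shCT against WT shCT (exact p = 0.0893) and -1.20 for 5xFAD shRTP801 against 5xFAD shCT (exact p = 0.0476), and neither held after adjustment (adjusted p = 0.536 for both). Without WT shCT mouse 15 the first was 1.95 (exact p = 0.0286). The second had an exact p of 0.05 or more when any 1 of its 9 mice but 5xFAD shRTP801 mouse 8 was left out, without the libraries low in mitochondrial tRNA (-0.97, exact p = 0.0536) and on the log scale (-1.61, exact p = 0.107). With 4-1 included, the 4 loci together had means of 0.0557% ± 0.0653 (SD) in WT shCT, 0.111% ± 0.0469 in 5xFAD shCT mice, with 0.0471% ± 0.0335 for the 5xFAD shRTP801 group, a log2 ratio of 0.998 for 5xFAD shCT against WT shCT (exact p = 0.25) and of -1.24 for 5xFAD shRTP801 against 5xFAD shCT (exact p = 0.0238, adjusted p = 0.536). The first of these was 2.02 without WT shCT mouse 15 (exact p = 0.0286) and 0.60 without 5xFAD shCT mouse 16 (exact p = 0.619). The second lost its p under 0.05 without 5xFAD shCT mouse 16 (-0.84, exact p = 0.143) and without 5xFAD shRTP801 mouse 2 or mouse 12 (exact p = 0.0893 and 0.0536). Adding 4-1 lowered the first ratio and widened its spread. The second went from -1.20 to -1.24 and its exact permutation p from 0.0476 to 0.0238, with an adjusted p of 0.536 both times.

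Whether Arg-TCT-4-1 moved apart from the other loci was tested on their ratio within each mouse. The mean log2 ratio of 4-1 to the other 3 loci was -1.31 ± 1.37 (SD, n = 5) in WT shCT, -1.19 ± 0.79 (n = 4) in WT shRTP801, -1.99 ± 1.39 (n = 3) in 5xFAD shCT mice, with -1.94 ± 0.98 (n = 6) for the 5xFAD shRTP801 group. It differed by -0.69 between 5xFAD shCT and WT shCT (exact permutation p = 0.518) and by 0.06 between 5xFAD shRTP801 and 5xFAD shCT (exact p = 0.964). Without 5xFAD shCT mouse 16 these were -1.34 and 0.71, and without 5xFAD shCT mouse 1 they were 0.0446 and -0.67. A difference in response between the locus without an intron and the loci with one was therefore not detectable with these few reads.

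In the limma fit across 333 precursor loci, Arg-TCT-2-1 had a log2 change of 3.04 ± 1.31 (SE) in 5xFAD shCT against WT shCT (adjusted p = 0.313, limma), and Arg-TCT-4-1 one of 0.99 ± 1.15 (adjusted p = 0.653, limma), which ran from 0.17 without 5xFAD shCT mouse 16 to 1.75 without WT shCT mouse 15. Arg-TCT-1-1 had -1.54 ± 0.48 (SE) in 5xFAD shRTP801 against 5xFAD shCT (adjusted p = 0.422, limma). At an unadjusted p under 0.05, 1 of 4 loci passed in the first comparison, beside 15.6% of all loci, and 1 of 4 in the second, beside 7.51%. After adjustment limma and edgeR called 0% of the loci in each comparison and in the interaction, as did DESeq2, with 7 to 52 of 333 at an unadjusted p under 0.05 in limma. With 1 mouse left out, limma called at most 1 locus in a comparison and, for the interaction without WT shRTP801 mouse 4, 8 loci, none of them of Arg-TCT.

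The same comparisons in other tRNAs give the setting. Of the 17 loci of Ile-TAT, Leu-CAA and Tyr-GTA, the other families with introns, 14 had a positive change in 5xFAD shCT against WT shCT, with a median of 2.02 on the log2 scale, beside 1.60 for the 3 Arg-TCT loci with an intron and 0.03 over all loci. In 5xFAD shRTP801 against 5xFAD shCT, 15 of 17 were negative with a median of -1.75, beside -1.54 for the 3 Arg-TCT loci and -0.13 over all loci. Arg-TCT-4-1, without an intron, had 0.99 ± 1.15 (SE) and -1.39 ± 1.11 in these comparisons (adjusted p = 0.653 and 0.742, limma). Both values lay within the ranges of the 3 Arg-TCT loci with an intron (0.73 to 3.04 and -2.25 to -1.15). Of 19 precursor loci of the other arginine tRNAs, which lack an intron in that list, 7 were positive in the first comparison and 8 in the second, with medians of -0.25 and -0.09. Arg-TCG-3-2 lay nearest the first median (-0.25 ± 0.88, SE, adjusted p = 0.885, limma). Of 14 mature tRNAs of the other arginine anticodons, 13 were negative in 5xFAD shCT against WT shCT, with a median of -0.61 and Arg-ACG-1 nearest it (-0.59 ± 0.34, SE, adjusted p = 0.539, limma). Both comparisons share the 5xFAD shCT mice. None of the members of these lists passed the test after adjustment.

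Of the 4 isodecoders with both kinds of entry, Arg-TCT-4 had the most precursor reads per mature read by median. Per 1000 mature reads, the median over 18 mice was 27.5 precursor reads for Arg-TCT-4 (range 0.604 to 524.6), 10.7 for Arg-TCT-2, 4.17 for Arg-TCT-3 and 0.428 for Arg-TCT-1. The value of isodecoder 4 was the highest of the 4 in 15 of 18 mice. Over the 158 isodecoders of the table with a precursor entry and a mean mature share of at least 0.001%, the median was 3.17, and Arg-TCT-4 ranked 9, Arg-TCT-2 ranked 30 and Arg-TCT-3 ranked 63, while Arg-TCT-1 lay far below the median.

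Within mice, the log2 ratio of precursor to mature reads was higher for Arg-TCT-4 than for the summed other isodecoders in 18 of 18 mice, by 3.39 ± 1.57 (SD, p = 1e-05, the smallest that 100000 sign-flip permutations can give). Against single isodecoders it was higher by 5.09 ± 2.32 than that of Arg-TCT-1 (18 of 18 mice), by 1.961 ± 1.51 than that of Arg-TCT-2 (17 of 18) and by 2.69 ± 1.60 than that of Arg-TCT-3 (17 of 18). The adjusted p were 3e-05, 0.00012 and 3e-05 (sign-flip permutation). The difference from the summed others includes the mature reads of isodecoder 5, which has no precursor entry here. The range was wide, and the highest value came from 5xFAD shCT mouse 16, with 32 precursor and 61 mature reads. Mature reads counted for several isodecoders, for which the values of 2, 3 and 5 were called uncertain above, would lower the ratios of the others. Precursor reads of 4-1 also include 27 of the 3′ trailer among 216, described below, beside 0 of 520 at the other 3 loci. What part these have in the differences was not tested.

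The difference from the summed others was as large without the 3 libraries low in mitochondrial tRNA (3.79) and lay between 3.21 and 3.56 when any 1 mouse was left out.

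**Figure D3:**
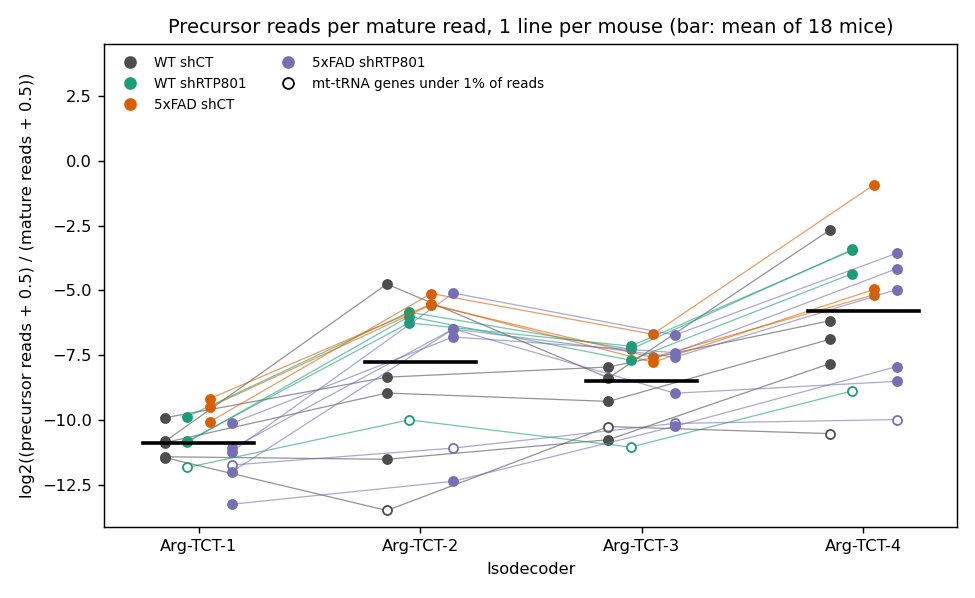
Log2 ratio of precursor to mature reads, with 0.5 added to each, for the 4 isodecoders that have both. Each thin line joins the values of 1 mouse, colours are groups, thick bars are means over 18 mice, and open points are the 3 libraries with mitochondrial tRNA genes under 1% of reads. Arg-TCT-4 has the highest mean and Arg-TCT-1 the lowest, and the open points lie low for isodecoder 4.

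Between groups this ratio did not differ beyond its spread for Arg-TCT-4. Its mean log2 value was -6.81 ± 2.85 (SD, n = 5) in WT shCT, -5.03 ± 2.60 (n = 4) in WT shRTP801, -3.68 ± 2.39 (n = 3) in 5xFAD shCT mice, with -6.52 ± 2.63 (n = 6) for the 5xFAD shRTP801 group. The difference was 3.13 for 5xFAD shCT against WT shCT (exact p = 0.179), and it was 4.17 without WT shCT mouse 15 (exact p = 0.0286) and 1.75 without 5xFAD shCT mouse 16 (exact p = 0.476), the mouse with 61 mature reads. It was -2.84 for 5xFAD shRTP801 against 5xFAD shCT (exact permutation p = 0.202), and -1.46 without mouse 16 (exact p = 0.536). For the summed other isodecoders the difference was 2.19 (exact p = 0.0357, adjusted p = 0.536) and -1.80 (exact p = 0.0833), with all 5xFAD shCT mice above all mice of either group. The first ran from 1.81 to 2.66 when any 1 of its mice was left out, each time with an exact p of 0.0571 or more. Both comparisons share those 3 mice. For how many of all isodecoders this ratio separates the groups is not given here. WT shCT mouse 15 and 5xFAD shRTP801 mouse 12 differed widely in the part of all reads that was mature tRNA. Their ratios were -8.03 and -11.56 for the others and -2.67 and -7.94 for Arg-TCT-4. Genotype and such differences between libraries were not told apart.

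**Figure D4:**
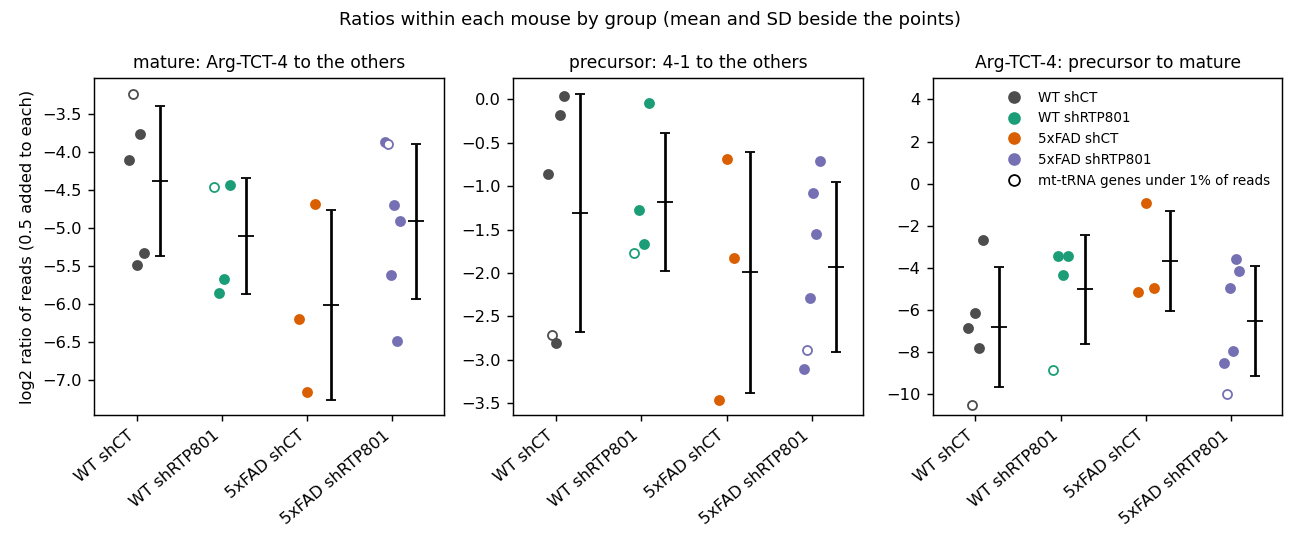
Log2 ratios of reads within each mouse by group, for mature Arg-TCT-4 to the other isodecoders, the 4-1 precursor to the other 3 loci, and precursor to mature Arg-TCT-4. Points are mice, marks with bars are means and SD, and open points are the 3 libraries with mitochondrial tRNA genes under 1% of reads. The mean of the 5xFAD shCT mice is lowest in the left panel (-6.01) and highest in the right one (-3.68), and the groups overlap in all 3.

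The kinds of reads differed between Arg-TCT-4 and its relatives. Mature reads were counted as whole, as covering the 5′ end, as covering the 3′ end or as lying at neither. Of the mature reads of Arg-TCT-4, 98.1% ± 3.02 (SD, n = 18) covered the 3′ end, 0.846% ± 1.56 the 5′ end and 0.915% ± 1.23 neither. Only 25 reads at the 5′ end and 1 whole read were counted over all libraries, beside 17545 at the 3′ end. For the summed other isodecoders the 3′ share was 92.4% ± 5.55, the 5′ share 4.07% ± 3.05 and the rest at neither end 3.34% ± 2.49. The 5′ reads of isodecoders 2, 3 and 5 were near equal in number per library, as given above, and those of isodecoder 1 had a median of 0.834 to 1.08 times theirs. Reads counted for several isodecoders would add to the 5′ share of the summed others and, most of all, of isodecoders 2 and 5, which have few 3′ reads, and how far this sets the differences that follow was not tested.

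Within mice the 3′ share of Arg-TCT-4 was higher than that of the others by 5.75 percentage points ± 5.33 (17 of 18 mice, adjusted p = 0.00016) and the 5′ share differed by -3.22 ± 2.95 (lower in 18 of 18, adjusted p = 2e-05, sign-flip permutation). The exception for the 3′ share was 5xFAD shCT mouse 16, where 86.9% of only 61 reads covered the 3′ end. Against single isodecoders the 3′ share was higher by 1.72 points ± 3.28 than that of Arg-TCT-1 (16 of 18 mice, adjusted p = 0.041), 5.49 ± 4.70 than that of Arg-TCT-3, 20.04 ± 13.4 than that of Arg-TCT-2 and 29.2 ± 18.4 than that of Arg-TCT-5 (adjusted p = 0.00013, 2e-05 and 2e-05, sign-flip permutation). The difference from Arg-TCT-1, the most abundant isodecoder, was thus the smallest.

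**Figure D5:**
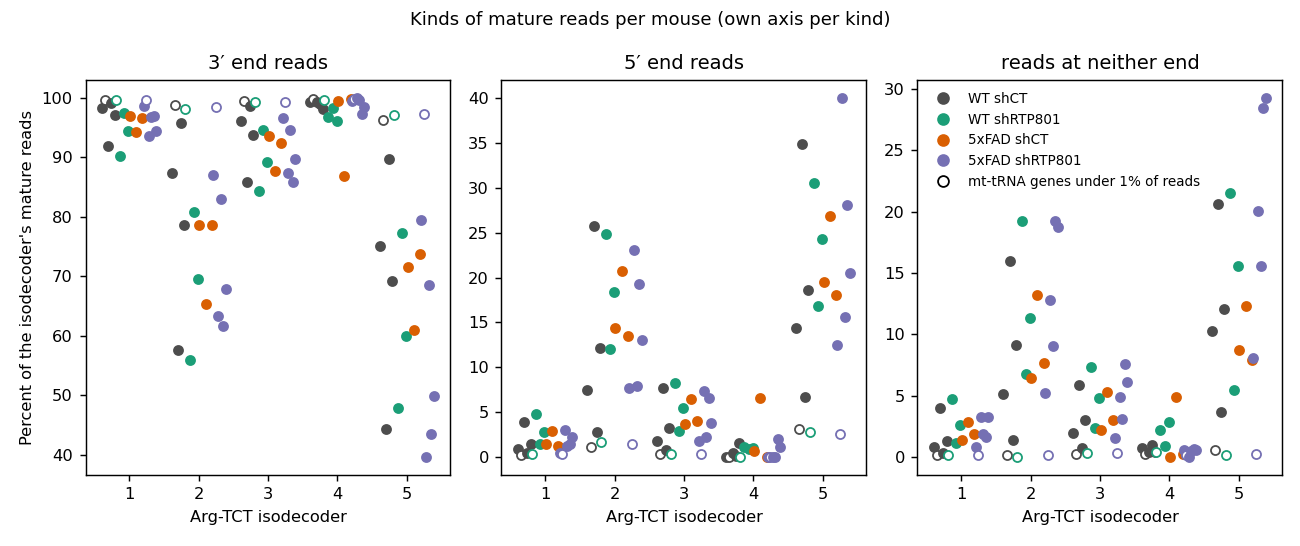
Percent of each mature Arg-TCT isodecoder's reads that cover the 3′ end, the 5′ end or neither, each panel on its own axis. Each point is 1 mouse, coloured by group, and open points are the 3 libraries with mitochondrial tRNA genes under 1% of reads. Isodecoder 4 lies near 100% at the 3′ end except in 1 5xFAD shCT mouse, isodecoders 2 and 5 spread down to 55.9% and 39.6%, and at the 3′ end the open points lie high for each isodecoder.

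Between groups, the 3′ share of Arg-TCT-4 averaged 99.1% ± 0.607 (SD, n = 5) in WT shCT, 97.7% ± 1.54 (n = 4) in WT shRTP801, 95.3% ± 7.32 (n = 3) in 5xFAD shCT mice, with 99.1% ± 1.05 (n = 6) for the 5xFAD shRTP801 group (exact permutation p of 0.124 to 0.339 over the 4 comparisons). Reads at neither end averaged 0.397% ± 0.261 in 5xFAD shRTP801 and 1.56% ± 1.11 in WT shRTP801 mice (exact p = 0.0238, adjusted p = 0.536), on 0 to 11 reads a mouse. The difference of -1.16 percentage points became -0.97 without WT shRTP801 mouse 10, -1.40 without mouse 17 and -0.75 without mouse 21 (exact p = 0.0595 each). The 3′ share differed with an exact p under 0.05 only without WT shRTP801 mouse 4, by -1.99 points for WT shRTP801 against WT shCT (exact p = 0.0357) and by 2.01 between the silenced groups (exact p = 0.0476), and without 5xFAD shCT mouse 16 both comparisons with the 5xFAD shCT group changed sign (0.49 and -0.48 points).

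Precursor reads were almost all partial. No whole precursor was read at the 4 Arg-TCT loci (0 reads in 18 libraries). Reads of the 3′ trailer, the piece that is cut off when the 3′ end is formed, were found at Arg-TCT-4-1 with 27 reads in 9 of 18 mice, or 12.5% of its 216 precursor reads (Wilson interval 8.73% to 17.6%). That interval pools the reads of all mice and leaves out the spread between them. Per mouse the trailer share was 7.60% ± 9.41 (SD, n = 18, range 0% to 30%). At the other 3 loci 0 of 520 precursor reads were trailers, which allows a share of up to 0.577%, the share that 3 reads would make. WT shCT mouse 15 gave 7 of the 27, 5xFAD shRTP801 mouse 19 gave 6, WT shRTP801 mouse 21 gave 5 and 5xFAD shCT mouse 16 gave 4. Each of these mice had the highest sum of reads over all entries in its group.

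Trailers were rare over the table, with 447 reads at 57 of 335 loci. Arg-TCT-4-1 held 6.04% of all trailer reads and 0.0121% of all precursor reads. By number it came next after Arg-ACG-1-3 with 201 and His-GTG-2-7 with 35 reads. By trailer share it ranked 2 among the 298 loci with at least 50 precursor reads, 248 of which had none. Since reads of several mice are summed here and mice differ in number of reads, these ranks are a description.

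By rank, the tRNAs whose mature share followed that of Arg-TCT-4 most closely over the 18 mice were Asn-GTT-1 (Spearman's rho 0.926, Pearson's r 0.825), Asn-GTT-3 (0.911 and 0.849) and Arg-TCG-2 (0.899 and 0.773), among 185 others with a mean of at least 0.001%. In the 15 libraries without low mitochondrial tRNA, rho was 0.886, 0.864 and 0.861, and 2 other tRNAs lay above them, Thr-CGT-3 (0.921) and Met-CAT-1 (0.904), whose rho over all 18 mice was 0.437 and 0.168. By Pearson's r 3 members of its own family came first, with 0.942 for Arg-TCT-3, 0.937 for Arg-TCT-2 and 0.932 for Arg-TCT-1, while Arg-TCT-5 had 0.80. WT shCT mouse 5 had the highest share of each of them. By rho, Arg-TCT-3, 2, 1 and 5 had 0.841, 0.744, 0.748 and 0.426 over all mice. In the 15 libraries these were 0.754, 0.646, 0.586 and 0.168. The shares come from the same libraries and sum to a whole, so they are not independent.

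Over these 15 libraries, the mature share of Arg-TCT-4 was set against the precursor share of Arg-TCT-4-1 (Pearson's r = -0.31, permutation p = 0.25, adjusted p = 0.537, and Spearman's rho = -0.48, permutation p = 0.0731, adjusted p = 0.366). Without the 2 mice farthest from the median r was -0.14. For isodecoders 1, 2 and 3 and their loci, r was -0.57 (permutation p = 0.0251, adjusted p = 0.126 over 5 relations) and rho -0.38 (permutation p = 0.158), and without the 2 farthest mice r was -0.07, so that relation rests on those mice. The percentage of mitochondrial tRNA reads gave r = -0.23 (permutation p = 0.421) and rho = -0.25 (permutation p = 0.374) with the mature share of Arg-TCT-4. It gave r = -0.16 (permutation p = 0.573) and rho = -0.13 (permutation p = 0.648) with its ratio to the other isodecoders, and r = 0.22 (permutation p = 0.429) and rho = 0.23 (permutation p = 0.404) with its precursor to mature ratio. Without the 2 farthest libraries r was -0.04, -0.01 and 0.12. None of the 5 relations passed after Benjamini-Hochberg adjustment. The part of all reads that was mature tRNA was not set against these measures.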

How the data were processed

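Hydro-tRNA-seq of hippocampal RNA was deposited for 18 mice as 1 table. The authors counted reads with tRAX per mature tRNA, precursor locus and read type and divided each library by a size factor, so the deposited values are a normalized signal. Per the submitters' processing notes the build was mm39, and the versions of tRAX and of the aligner are not given in the sources used here. Each library's values were whole multiples of its smallest value (100% within 0.01), and reads were recovered by that division.

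Shares are percentages of mature or of precursor reads. Group means were compared by two-sided exact permutation, and values within mice by 100000 sign flips. With 0.5 added to reads, log2 ratios were formed. The fit over species (mean of at least 0.001%) was made on log2(percentage + 0.001) by limma 3.58.1, run in R 4.3.3, with 4 groups sharing 1 spread and with Benjamini-Hochberg adjustment at 0.05. Alternatives were fits of the recovered counts by DESeq2 1.42.0 and by edgeR 4.0.16, other pseudocounts, no filter, deposited values and fewer mice. The fit was also run on simulated counts with a fixed spread that was not taken from these data. That run therefore does not measure power or error at the spread between these mice. Python 3.11.15, numpy 2.4.6, pandas 2.3.3, scipy 1.17.1 and matplotlib 3.10.9 were used. No 2 libraries of a group agreed within sampling noise. Mature read counts of 9850676 to 20292469 per library and precursor counts of 47875 to 318628 set the precision, and intervals are Wilson 95% intervals (for a count of 0 the limit given is the share of 3 reads). All 18 columns matched a labelled sample, and mouse numbers pair no mice across groups. Each library is 1 mouse, so the tests set differences against the spread between mice, which here includes that of library preparation.

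The members and lists were chosen with earlier results of these data known. Named were every Arg-TCT entry, the 3 mature tRNAs with the highest Spearman's rho with Arg-TCT-4, and the member of an arginine list nearest its median. The tests of all 4 loci summed and of the precursor to mature ratio of the other isodecoders were added after the data were seen. The study's analysis of variance over genotype and treatment and its removal of outliers by test were not applied here. Sequences of the tRNAs were not used here.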

Additional observations from a re-analysis of the deposited data

Results flagged for a closer look

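In 57 groups of 4 to 6 mice tested for a mouse far from the others (19 measures in 3 groups, where chance gives about 1 in 20), 11 values stood apart. WT shCT mouse 5 was far above its group in mature Arg-TCT-4 (0.0338% of mature reads), in the summed other isodecoders (0.319%), and in Arg-TCT-2 (0.0293%), Arg-TCT-3 (0.115%) and Arg-TCT-5 (0.0103%). Its mitochondrial tRNA genes held 0.00314% of reads, and the part of that in these values was not tested. WT shCT mouse 15 was far above its group in the precursor of Arg-TCT-4-1 (0.0856% of precursor reads), in that of 2-1 (0.0585%), in all 4 loci summed (0.169%) and in the 5′ share of mature Arg-TCT-4 (1.52%, or 4 of 263 reads). It had the fewest precursor reads of all libraries (47875) and the highest sum of reads over all entries (89228299). WT shRTP801 mouse 4, with 0.427% mitochondrial tRNA reads, was far below its group in the log2 precursor to mature ratio of the other isodecoders (-11.58) and in the precursor of 3-1 (0.00167%). No interaction of genotype and treatment passed the test for an Arg-TCT tRNA.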

How the results depend on the processing

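Group differences of the family rested on few precursor reads (10 to 84 a library) and on single mice. Values are log2 ratios or differences, and the cause of a change was not tested. With the deposited normalized values, the 4-1 precursor in 5xFAD shCT against WT shCT was -0.0029, and in 5xFAD shRTP801 against 5xFAD shCT the other loci were -0.65 and all 4 loci -0.72, no longer with p under 0.05. With log2 of the percentage plus 0.001, these 2 were -1.61 and -1.64 without a call, and WT shRTP801 against WT shCT turned to 0.24 for 4-1, 0.10 for the other loci and 0.0738 for all 4. Without the libraries low in mitochondrial tRNA, the other loci gave -0.97 in 5xFAD shRTP801 against 5xFAD shCT, 0.16 in WT shRTP801 against WT shCT and -0.0493 between the silenced groups. All 4 loci then gave 0.0627 and the ratio of 4-1 to the other loci -0.0369 in WT shRTP801 against WT shCT. The precursor to mature ratio of the other isodecoders in 5xFAD shCT against WT shCT was 2.00 with 5 added and 1.90 without those libraries, with no call. DESeq2 made 1 mature call in WT shRTP801 against WT shCT.

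Leaving out 1 mouse, the 4-1 share ran from -0.88 to 2.24 in 5xFAD shCT against WT shCT, -1.17 to 1.67 in WT shRTP801 against WT shCT and -1.30 to 0.19 between the silenced groups. In that order and with 5xFAD shRTP801 against 5xFAD shCT second, the other loci ran from 1.02 to 1.95, -1.46 to -0.97, -0.27 to 0.66 and -0.27 to 0.34, and all 4 loci from 0.60 to 2.02, -1.45 to -0.84, -0.55 to 0.96 and -0.55 to 0.30. The mature ratio of Arg-TCT-4 ran from -2.29 to -1.05 in 5xFAD shCT against WT shCT and from -0.0564 to 0.51 between the silenced groups. The precursor ratio of 4-1 ran from -1.34 to 0.0446, from -0.67 to 0.71 and, in WT shRTP801 against WT shCT, from -0.26 to 0.46. Precursor to mature ratios in 5xFAD shCT against WT shCT ran from 1.75 to 4.17 for Arg-TCT-4 and from 1.81 to 2.66 for the others. In percentage points of Arg-TCT-4 reads, 5xFAD shCT against WT shCT ran from -0.0851 to 3.19 (5′), -5.94 to 0.49 (3′) and -0.41 to 2.05 (neither), and 5xFAD shRTP801 against 5xFAD shCT from -3.07 to 0.21, -0.48 to 5.95 and -2.19 to 0.27. The 3′ share ran from -1.99 to -0.85 in WT shRTP801 against WT shCT and 0.87 to 2.01 between the silenced groups, and reads at neither end from 0.61 to 1.40 and -1.54 to -0.75. Calls of limma over all precursor loci ran from 0 to 1 in 5xFAD shCT and in WT shRTP801 against WT shCT, and 0 to 8 for the interaction.

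The 4 comparisons of Arg-TCT-4 with the other isodecoders within mice kept their direction and call under every alternative run. No paired analysis was possible because each mouse number occurs in only 1 group.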
